A study of Mus musculus with 7 samples.

Results

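The microRNA (miRNA) hairpins mmu-mir-193b, mmu-mir-365-1 and mmu-mir-365-2, below without the prefix, were examined in the small RNA of HL-1 cells, a line of mouse atrial cardiomyocytes. They were chosen by name, as 3 of the 686 mouse hairpins that received tags, with earlier results of these data already known. A tag is one sequence read, and 18666 of the 41041023 placed tags (263 of 76222 distinct sequences) fell on them. Each tag had been assigned to the hairpin or hairpins with the fewest mismatches, up to 2. There were 7 libraries of HL-1 cells, with no treatment or genotype beyond the line given: 2 from day 1 in culture, 1 from day 2, 2 from day 3 and 2 from day 4, when most of the cells beat. The labels give only replicate numbers 1 and 2, which were read here as the study's first time course and its repeat. On that reading, time course 2 gave libraries of all 4 days, and time course 1 gave days 1, 3 and 4. All libraries come from this single line, and the repeat of the time course is the only replication. Totals ran between 4945112 and 6899476 tags per library.

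A miRNA hairpin is cut by Drosha and then by Dicer into a short duplex, and the strand that stays in an Argonaute protein pairs with mRNAs through its seed, bases 2 to 8. mir-193b and mir-365-1 form a cluster that is known to be induced in part by Prdm16 in brown fat precursors, where it holds back the muscle programme. The same pair of miRNAs exists a second time in the genome, as mir-193 (Mir193a) and mir-365-2.

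On mouse chromosome 16 (GRCm38.p6, plus strand), the mir-193b hairpin lies at chr16:13449523-13449601 and mir-365-1 at chr16:13453840-13453926, 4238 bases further on. Both are inside the antisense gene Gm15738 of the opposite strand, in no exon of it. On chromosome 11, mir-193 lies at chr11:79711969-79712034 and mir-365-2 at chr11:79726400-79726511, 14365 bases apart, with no other annotated gene over them. The strands (RefSeq) are shown with the seed in capitals, because the seeds tie the loci together.
miR-193b: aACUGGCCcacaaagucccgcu
miR-193: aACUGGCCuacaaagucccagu
miR-365: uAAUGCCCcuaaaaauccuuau
miR-193b, 5p strand: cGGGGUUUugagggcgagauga
miR-193, 5p strand: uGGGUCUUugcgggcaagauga
miR-365-1, 5p strand: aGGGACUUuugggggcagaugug
miR-365-2, 5p strand: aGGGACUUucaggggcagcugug
The 3p strands of miR-193b and miR-193 share the seed ACUGGCC and no other mature sequence of the reference has it. They differ by 3 substitutions, given as the miR-193b base, its position from the 5′ end and the miR-193 base: C9U, G20A and C21G. miR-365 is the same 22-nt sequence at both of its loci, so its tags cannot be assigned to one of them. The 5p strands of its copies share their seed and differ by U10C, G11A and A19C, the copy 1 base being given first.

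mir-193b gave almost all of its tags from the 3p arm, and so did mir-365-1 and mir-365-2 when pooled as mir-365. The arm use of mir-365-1 alone could not be determined, because the 3p strand of miR-365 is the same at both of its loci. miR-193b had 12536.5 tags in the 7 libraries together, rank 152 among 1225 strands with tags, and its 5p strand had 74. Tags that match several strands equally were divided among them, which gave the 0.5 and concerned 1.5 tags of miR-193b. miR-365 had 5772 tags (rank 190), and its 5p strands had 31 tags from mir-365-1 and 3 from mir-365-2. The 5p strand thus took 0.587% of the mir-193b tags (95% Wilson interval 0.468 to 0.736%) and 0.586% of the mir-365 tags (0.419 to 0.817%). Such intervals cover counting error only. At mir-193 the 5p strand was less rare, with 8.36% of tags (6.68 to 10.4%, 71 against 778.5 tags). Its share varied between 3.13 and 15.1% over libraries, and the shares of mir-193b (0.289 to 0.908%) and mir-365 (0.233 to 1.47%) stayed below that range.

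Levels are given as CPM, the count of a strand scaled to a fixed library total, after scaling between libraries by the TMM method. In time course 2, miR-193b had 372.6 CPM on day 1, 270.4 on day 2, 317.4 on day 3 and 204.9 on day 4. In time course 1 it had 404.4 CPM on day 1, 251.8 on day 3 and 282.5 on day 4. The day 1 libraries were the highest of their time courses, and the lowest library was day 4 in time course 2 but day 3 in time course 1. Over all libraries miR-193b averaged 300.6 ± 69.6 CPM (SD, n = 7), and the highest library had 1.97 times the lowest.

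miR-365 varied more between libraries. In time course 2 it had 264.3 CPM on day 1, 167.9 on day 2, 129.9 on day 3 and 73.6 on day 4, each day lower than the day before. In time course 1 it had 150.01 CPM on day 1, 92.7 on day 3 and 76.8 on day 4, again in falling order. The time courses were far apart on day 1 and close on day 4. miR-365 averaged 136.4 ± 67.1 CPM (SD, n = 7), with the highest library 3.59 times the lowest.

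miR-193, counted for comparison, was a much rarer strand of the same seed. In time course 2 it had 19.5 CPM on day 1, 20.6 on day 2, 15.2 on day 3 and 9.73 on day 4. In time course 1 it had 28.2 CPM on day 1, 15.9 on day 3 and 22.4 on day 4. Neither the order of the days nor the day 4 level was shared by its time courses.

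**Figure D1:**
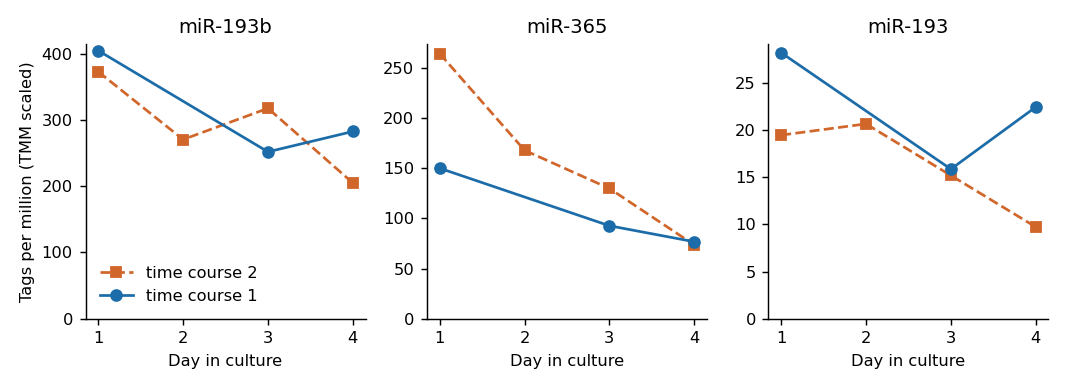
TMM-scaled CPM of miR-193b, miR-365 and miR-193 (left to right, each with its own axis from 0) by day in culture. Each point is one library, and lines join the libraries of one time course; miR-365 was lower at each later day sampled, ending at 73.6 and 76.8.

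The study asked how the miRNA profile changes as the cells pass from not beating to beating. It reported highly similar libraries, and by qPCR a rise in overall miRNA abundance, which it says tag counts cannot detect. From tag counts above a threshold it also scored several miRNAs as lower on day 4 in both replicates, and none as consistently higher. miR-193b, miR-365 and miR-193 are not among those it named. CPM is relative to the library, so a lower CPM here need not be a lower amount per cell. On day 4 miR-365 had 76.8 and 73.6 CPM, against 150.01 and 264.3 CPM on day 1 (time courses 1 and 2 at each day). The comparison called 0% of strands in either direction. The log2 fold change of day 4 over day 1 was -1.84 within time course 2 and -0.97 within time course 1, and edgeR's fit over all libraries gave -1.46 (SE 0.41). This was not called, with edgeR's adjusted p = 0.322 over 629 strands (unadjusted p = 0.00738, lower for 10 other strands). DESeq2, run as an alternative, called it at an adjusted p of 0.0319 with a log2 fold change of -1.47. With the time course as a replicate block, edgeR gave -1.40 with an adjusted p of 0.111.

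miR-193b had 282.5 and 204.9 CPM on day 4, against 404.4 and 372.6 CPM on day 1. Its log2 fold change was -0.86 within time course 2 and -0.52 within time course 1, with -0.67 (SE 0.34) in the fit and edgeR's adjusted p = 0.575. miR-193 had 22.4 and 9.73 CPM on day 4, against 28.2 and 19.5 CPM on day 1, where the groups overlapped. Its log2 fold change was -0.57 (SE 0.48, edgeR's adjusted p = 0.705). It was -0.04 and -1.29 without the day 4 libraries of time courses 2 and 1, and -0.83 and -0.24 without the day 1 libraries of time courses 2 and 1. None of these changes passed the threshold of 0.05.

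The test called 0% of the 629 strands lower on day 4 and 0% higher. At an unadjusted p below 0.05 there were 66 strands, and DESeq2 called 14 of the 428 to which it gave an adjusted p. The median log2 fold change over all 629 strands was 0.00, and 27 strands had a lower value than miR-365 and 109 a lower value than miR-193b. As the hairpins were taken up with earlier results of these data known, these values describe them and support nothing further. Of the 5p strands, that of miR-193b had 12 and 10 tags on day 4, against 19 and 7 tags on day 1 (log2 fold change 0.14, SE 0.67). That of miR-193 had 6 and 2 tags on day 4, against 17 and 9 tags on day 1 (log2 fold change -1.27, SE 0.87, edgeR's adjusted p = 0.637). The 5p strands of miR-365 were too rare for the test.

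**Figure D2:**
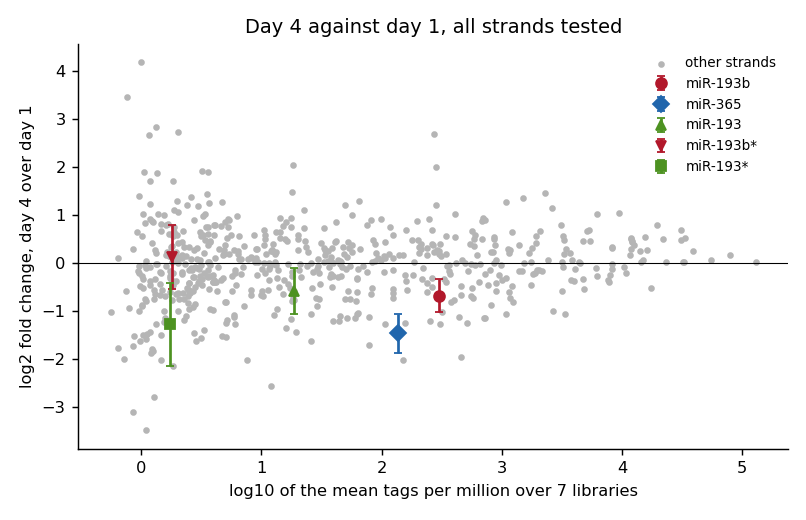
log2 fold change of day 4 over day 1 (edgeR, 2 libraries each) against the log10 of the mean CPM over 7 libraries. Grey points are the other strands tested and the coloured points, with SE bars, are the 3p strands of miR-193b, miR-365 and miR-193 and the 5p strands (asterisk) of miR-193b and miR-193; miR-365 lies at -1.46 and miR-193b at -0.67.

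The time courses could also be compared with each other, with day held constant. miR-365 had 264.3, 129.9 and 73.6 CPM on days 1, 3 and 4 of time course 2, against 150.01, 92.7 and 76.8 CPM in time course 1. It was higher in time course 2 on days 1 and 3 and not on day 4 (log2 fold change of time course 2 over 1 0.42, SE 0.27, edgeR's adjusted p = 0.385). The value was 0.16 and 0.13 without the day 1 libraries of time courses 2 and 1, and 0.64 and 0.65 without their day 4 libraries. miR-193b showed a value near 0 (-0.08, SE 0.26, adjusted p = 0.867 in edgeR). miR-193 was lower by value in time course 2 (-0.60, SE 0.28, edgeR's adjusted p = 0.262). The test called 3.34% of strands (21 of 629), and neither these nor the 5p strands of miR-193b and miR-193 were among them. That count was 0 without either day 1 library, 3 without the day 3 library of time course 2 and 9 and 11 without the day 4 libraries of time courses 1 and 2.

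Ratios within a library do not depend on scaling. They are ratios of tags, and whether different sequences enter a library equally well was not tested. miR-193b outnumbered miR-365 in all 7 libraries, by 3.68 and 2.78 times on day 4, against 2.70 and 1.41 times on day 1. The ratio was 1.61 on day 2 of time course 2 and 2.71 and 2.44 on day 3. The mean log2 ratio was 1.24 ± 0.48 (SD, n = 7), or 2.37-fold, with an adjusted p of 0.0156 in an exact two-sided sign-flip permutation test. This is the smallest p that 7 libraries allow, and it treats libraries of one time course as independent. In both time courses the ratio was higher on day 4 than on day 1, without a test of its own.

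miR-193b outnumbered miR-193 by 12.5 and 20.9 times on day 4, against 14.3 and 19.2 times on day 1. The ratio was 13.0 on day 2 and 15.8 and 20.8 in time courses 1 and 2 on day 3. The mean log2 ratio was 4.03 ± 0.31 (SD, n = 7; 16.3-fold, adjusted p = 0.0156, exact sign-flip permutation test). Here too the p is the smallest possible and treats libraries of the same time course as independent. On days 1, 3 and 4 alike, the larger ratio was that of time course 2. Of the tags that carry the seed ACUGGCC in these strands, the chromosome 16 locus therefore gave the large majority.

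The 3p strands differed in how sharply their 3′ ends were set. The commonest tags of miR-193b are shown, as DNA letters with the seed in capitals, because they carry the difference.
miR-193b, 22 nt: aACTGGCCcacaaagtcccgct
miR-193b, 23 nt: aACTGGCCcacaaagtcccgctt
miR-193b, 24 nt: aACTGGCCcacaaagtcccgcttt
miR-193b, 21 nt: aACTGGCCcacaaagtcccgc
miR-193b, 18 nt: aACTGGCCcacaaagtcc
miR-365, 22 nt: tAATGCCCctaaaaatccttat
miR-365, 21 nt: tAATGCCCctaaaaatcctta
The annotated 22-nt form made up 31.5% of miR-193b tags, and the forms 1 and 2 bases longer 28.9 and 11.9%. The 21-nt form had 7.21% and the 18-nt form 5.73%. For miR-365 the annotated 22-nt form made up 83.7% and the 21-nt form 7.73%.

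The share of tags that ended off the annotated 3′ end was 63.5 ± 1.97% for miR-193b and 13.9 ± 3.38% for miR-365 (SD, n = 7). Within libraries the shares differed by 49.6 ± 4.73 percentage points (SD, n = 7), between 42.3 and 55.1, with an adjusted p of 0.0156 in the exact sign-flip permutation test. The ranges were 60.2 to 65.4% for miR-193b and 9.77 to 19.0% for miR-365. miR-193 ended off the annotated position in 76.2 ± 7.11% of tags (SD, n = 7). This exceeded miR-193b in all 7 libraries, by 12.7 ± 6.65 percentage points (SD, n = 7, adjusted p = 0.0156, exact sign-flip permutation test). Each of these p-values is the smallest that 7 libraries allow, and treats libraries of the same time course as independent. As the hairpins were chosen with earlier results known, the differences only describe them.

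Longer and shorter ends were shared out differently in the pair of equal seed. Of miR-193b tags 30.01 ± 3.81% (SD, n = 7) ended 1 base past the annotated end and 7.54 ± 0.72% ended 1 base before it. Of miR-193 tags 20.6 ± 4.11% ended 1 base past it and 32.2 ± 6.43% 1 base before it. Among 246 annotated strands with at least 1000 tags the median share off the end was 64.6%, and 119 of them had a lower share than miR-193b. Of the 246, 245 had a higher share than miR-365, so that miR-365 had the lowest share off the annotated end. This measures departure from the annotation, and a strand with a single end elsewhere would score high.

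**Figure D3:**
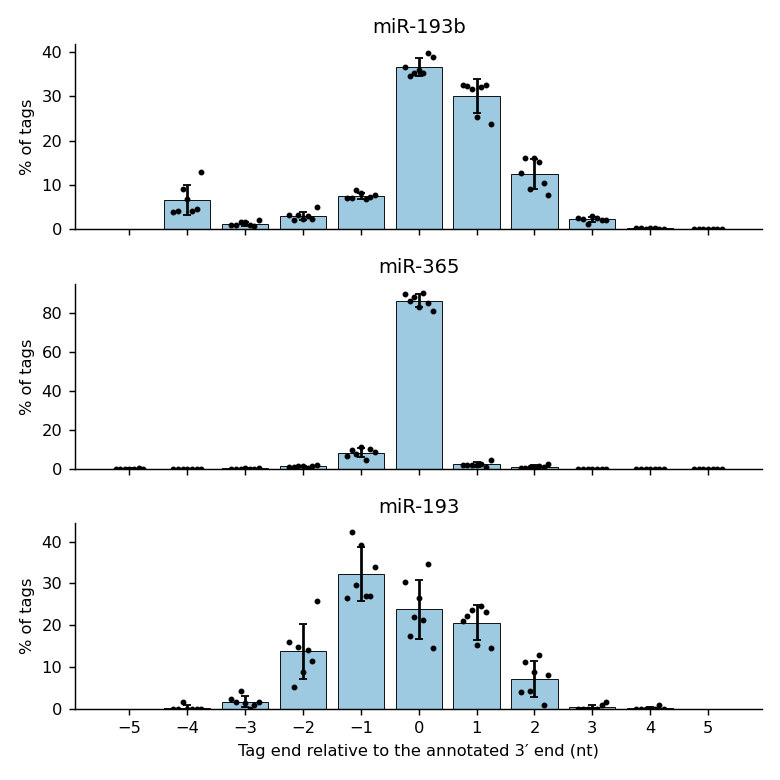
Share of the tags of miR-193b, miR-365 and miR-193 (top to bottom) by the position of the tag's last base relative to the annotated 3′ end. Bars are means over 7 libraries, error bars SD and points single libraries; miR-365 has one main position, while miR-193b has 36.5% at the annotated end and 30.01% at the next base.

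The shares at the 3′ end were compared between days as log2 odds. miR-365 had 14.9 and 19.0% off the end on day 4, against 10.6 and 13.9% on day 1. Of 267 strands 0% were called by limma (23 at an unadjusted p below 0.05). The difference was 0.55 log2 odds with limma's adjusted p = 0.70. miR-193b had 60.2 and 61.3% on day 4, against 63.5 and 65.4% on day 1 (-0.23 log2 odds, limma's adjusted p = 0.779). For miR-193 the value was 0.00 log2 odds and turned to 0.51 without the day 1 library of time course 2 and to 0.79 without the day 4 library of time course 1.

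The 18-nt form of miR-193b stops 4 bases short of the annotated end, with few tags of 19 nt between it and the longer forms. Tags of 18 nt made up 6.01% of miR-193b tags, and only 7 of the 246 strands had a higher share (median 0.502%). They made up 0.139% of miR-365 and 0.385% of miR-193 tags. By library the share in miR-193b was 3.96 and 4.19% on day 1, 9.12% on day 2, 6.93 and 4.28% on day 3 and 4.73 and 13.1% on day 4. The day 4 library of time course 2 was highest, with 171 such tags, and the day 4 library of time course 1 stood in the middle. Over all strands the share was 0.465 to 1.13% by library, with the day 2 library highest. The authors aligned tags by anchors of 18 nt and shorter tags are almost absent from the files, so shorter forms could not be counted. The part of that length in this form was not tested.

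**Figure D4:**
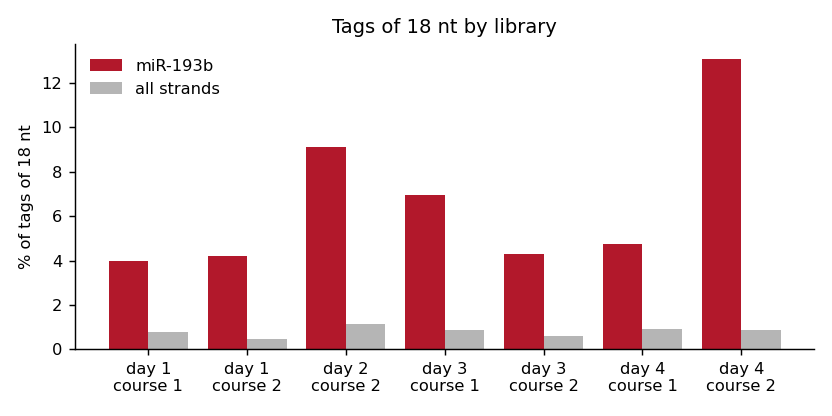
Percentage of tags of 18 nt in each library, for miR-193b (red) and for all strands together (grey), by day and time course. miR-193b lies between 3.96 and 13.1% and all strands between 0.465 and 1.13%.

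The 5′ ends, which set the seed, were close to uniform. miR-193b started off the annotated base in 3.34 ± 0.57% of tags and miR-365 in 1.79 ± 0.88% (SD, n = 7). Most of these tags started 1 base later (3.12 and 1.46% of all tags on average). The median over the 246 strands was 2.68% of merged tags. Single base changes were seen in 5.15% of miR-193b tags with the annotated start, and 54.3% of these were at position 17 from the 5′ end. The commonest, given as reference base, position and tag base, was C17A with 1.501% of tags (0.710 to 2.98% by library). In miR-365 the share was 2.80%, and T19C led with 1.23% (0.187 to 2.80%). At both of these positions more than one base replaced the reference base (C17T and C17G, T19A). Counted over all starts, 5.39% of miR-193b tags and 2.79% of miR-365 tags had a mismatch. The median over the 246 strands was 6.89%, with 162 strands above miR-193b and 231 above miR-365.

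Tags beside miR-365 itself told its copies apart. While 5775 tags fitted mir-365-1 and mir-365-2 equally, 88 fitted only mir-365-1 and 171 only mir-365-2. Of the mir-365 tags 3.78% started away from the annotated strands, against 0.158% at mir-193b and 2.3% at mir-193. The median was 0.221% over 166 hairpins with at least 1000 tags. Of these hairpins 19 had a higher share than mir-365 and 29 a higher share than mir-193. With 869.5 tags, 20 of them away from the annotated strands, mir-193 itself was below the limit of 1000. The commonest such tags of mir-365 are shown without uncalled end bases, and a 5p strand tag beside them. The bases they share with the 3p strand of miR-365 are in capitals.
mir-365-2, upstream of the 5p strand: tcaaggacagcaagaaaaatg
mir-365-2, across the end of the 3p strand: TCCTTATtgttcttgcagtgtg
mir-365-1, across the end of the 3p strand: ATCCTTATtgctcttgca
mir-365-1, 5p strand with its seed in capitals: aGGGACTTttgggggcagatgt
The 21-nt tag upstream of mir-365-2 ended at the base before the annotated 5p strand. It had 33 tags: 5 and 19 on day 1, 4 on day 2, 0 and 0 on day 3 and 0 and 5 on day 4, in time courses 1 and 2. The day 1 library of time course 2 thus held most of them.

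The 5p strand and the flanks did not favour the same copy. Of the 34 tags of the 5p strands 31 came from mir-365-1 (91.2%, Wilson interval 77.0 to 97.0%), which had more than mir-365-2 in 6 libraries and as many in 1. Of the tags in the flanks or across the end of the 3p strand, 42 came from mir-365-1 and 154 from mir-365-2 (21.4% from mir-365-1, 16.3 to 27.7%). mir-365-2 had more of these in 6 libraries and as many in 1. By library, these flanking tags of mir-365-2 were 25 and 46 on day 1, 32 on day 2, 6 and 16 on day 3 and 11 and 18 on day 4. The day 1 and day 2 libraries were high, as they were for miR-365, and those of mir-365-1 stayed between 3 and 9. The annotated hairpins differ in reach: mir-365-2 has 28 bases before its 5p strand and 23 after its 3p strand, and mir-365-1 has 15 and 10. An upstream tag of 21 nt ending at the 5p strand could not be placed within the shorter hairpin. The part of this in the difference was not tested.

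**Figure D5:**
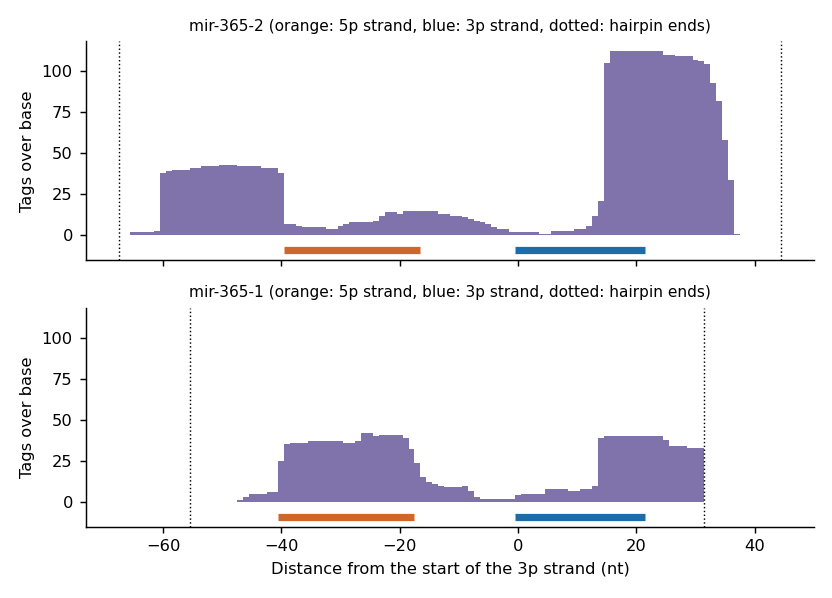
Number of tags over each base of mir-365-2 (top) and mir-365-1 (bottom) that fit only that copy, against the distance from the start of the 3p strand in nt. mir-365-2 peaks before its 5p strand and across the end of its 3p strand, and mir-365-1 over its 5p strand and the end of its 3p strand, up to the end of the hairpin.

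The strands whose pattern over the 7 libraries was most like that of miR-193b were miR-331-5p, let-7g-3p and miR-425-3p. Likeness was the root mean square difference of log2 CPM, each strand centred on its own mean, among 433 other strands with at least 150 tags. The difference was 0.11 for miR-331-5p, 0.14 for let-7g-3p and 0.15 for miR-425-3p, against a median of 0.49 over all strands. miR-425-3p, for example, had 165.4 and 118.3 CPM on day 4, against 203.7 and 162.1 CPM on day 1.

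For miR-365 the nearest were let-7f-1-3p (0.18), let-7b-3p (0.18) and let-7a-1-3p (0.19), which are the rarer strands of let-7 hairpins, against a median of 0.73. let-7b-3p had 262.6 and 315.1 CPM on day 4, against 426.3 and 831.4 CPM on day 1. miR-193b and miR-365 were not each other's nearest. miR-365 was at rank 173 for miR-193b and miR-193b at rank 34 for miR-365, with a difference of 0.45. As miR-365 sums the tags of both of its loci, this does not compare the members of the cluster. miR-193 was at rank 34 for miR-193b. These are descriptions over 7 points that share libraries and depth.

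As the cluster is known for its place between muscle and fat, both kinds of miRNA were counted. Of 19 strands of muscle miRNAs (miR-1, miR-133, miR-206, miR-208, miR-499 and miR-486) 0 were called on day 4 against day 1, and their median log2 fold change was 0.27. Arms of the loci of miR-1 and of miR-133a were counted separately, so sequences shared by these loci enter more than once. Of 18 strands of miRNAs known from adipocytes, miR-193 included, 0 were called and the median was 0.13. As the test called 0% of all strands in either direction, these counts say nothing about the lists. The median of all strands was 0.00, and the muscle values ran between -1.78 and 1.46. Muscle miRNAs took 96429 to 116487 CPM in each library, without TMM scaling, with means of 99786 on day 4 and 99016 on day 1. The adipocyte list took 65375 to 92839 CPM, with means of 84694 on day 4 and 65709 on day 1. Its most abundant strands were the 5p arm of miR-30b and the 5p strand of miR-30c. They averaged 30710 and 19530 CPM with TMM scaling, with log2 fold changes of 0.69 and 0.80. The list as a whole had a positive log2 fold change in 11 of its 18 strands. It is a list of miRNAs studied in fat cell differentiation and not of cell type markers, and several of them, such as miR-27, miR-30 and miR-378, are also known from heart muscle. The markers of other cell types had 484.0 to 925 CPM for endothelium (miR-126), 20.4 to 39.1 for blood, 16.9 to 34.1 for neurons, 4.88 to 14.7 for fibroblasts, 2.62 to 9.51 for epithelium and 0.932 to 4.67 for liver. The miR-126 strands averaged 899 CPM on day 4 and 575 on day 1, and miR-451, miR-223 and miR-142 of blood 25.1 on day 4 and 28.3 on day 1. The part of these lists in the levels of miR-193b and miR-365 was not tested.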

How the data were processed

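The authors enriched RNA below 70 nt, prepared SOLiD libraries, mapped tags to miRBase version 16 hairpins by 18-nt anchors (genome build mm9 per the labels) and deposited 1 list per library, of distinct tags and their raw counts. The deposited counts were not normalised. Replicates were not pooled in these lists or here, while the study merged its libraries for its later analyses.

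Tags of at least 16 nt were placed without gaps on 1222 hairpins of GENCODE vM21 and RefSeq (GRCm38), which are not the miRBase entries the authors used, with at most 2 mismatches and an overhang of up to 4 bases. Of all tags 92.9% were placed with 0 mismatches, 6.76% with 1 and 0.339% not at all. A tag counted for a strand if it started within 3 nt of the RefSeq start. Hairpins without RefSeq strands were counted by arm. Divided tags were rounded for the fits. Lines with no sequence (101, 293 tags) were left out.

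Days and time courses were compared with edgeR 4.0.16 (quasi-likelihood, TMM, filterByExpr, R 4.3.3) over all 7 libraries, and end shares with limma 3.58.1 on log2 odds (pseudocount 0.5, at least 50 tags per library), with Benjamini-Hochberg adjustment and a threshold of 0.05. The 4 within-library comparisons used exact sign-flip permutations in Python 3.11.15 (p adjusted over the 4). Scripts were tested on simulated data. Alternatives were DESeq2 1.42.0, library totals, no filter, no mismatch, tags of several strands left out, whole arms, a replicate block and each library left out.

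Replicate numbers were read as time courses, from the study's account of its repeat. Libraries that share a number had correlated residuals over 629 strands (r = 0.451, 0.415 and 0.37), so the numbers pair the libraries. The main fits of day 4 against day 1 did not use this pairing, and fits with it are given as the replicate block. The strands named were all those of these hairpins and of mir-193, and the 3 nearest patterns of miR-193b and miR-365. Hairpins and lists were chosen with earlier results of these data known. P-values measure the spread between libraries of one cell line.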

Additional observations from a re-analysis of the deposited data

Results flagged for a closer look

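The log2 fold change of day 4 over day 1 of the 5p strand of miR-193b differed in sign between the time courses, with values of 0.54 in time course 2 and -0.02 in time course 1. The value of time course 1 is close to 0. The difference was not tested, and it rests on 10 against 7 tags in time course 2 and 12 against 19 tags in time course 1.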

How the results depend on the processing

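Of 186 alternatives 168 kept the result. For fold changes and differences this meant the same direction and side of the threshold, and for counts of called strands a count near the main one. In day 4 against day 1, DESeq2 called 14 strands and the fit with no filter on low counts 8, in place of 0, and DESeq2 called miR-365 (log2 fold change -1.47, adjusted p = 0.0319). Over all alternatives its adjusted p was 0.0319 to 0.705. Without one library the change of miR-365 was -1.80 to -1.03, that of miR-193b -0.93 to -0.41 and that of miR-193 -1.29 to -0.04. Scaling by library totals moved the median of all strands by -0.17, with miR-365 at -1.63 and miR-193b at -0.85. With the time course as a replicate block the values were -1.40 for miR-365 (adjusted p = 0.111) and -0.68 for miR-193b (adjusted p = 0.303), and the block changed no call.

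Between time courses, 44 strands were called by DESeq2, 86 with no filter, 40 with no mismatch, 41 with tags of several miRNAs left out and 41 without day as a factor, in place of 21, and 0 to 28 without one library. The value of miR-193b turned to 0.0092 with no filter and ran from -0.33 to 0.11 without one library (0.11 and 0.09 without the day 4 libraries), that of miR-365 from 0.13 to 0.65 and that of miR-193 from -0.89 to -0.31. For miR-193 the end share between days turned to 0.51 and 0.79 log2 odds (range -0.79 to 0.79). The cause was not tested for any of these. The within-library differences held in every alternative; with 6 libraries the exact permutation test cannot go below 0.0312. At 2 libraries a day and 3 residual degrees of freedom, a change of the size seen for miR-193b (-0.67, SE 0.34) was not called after adjustment, and counts of the 5p strands and of tags that tell the mir-365 copies apart are too low for comparisons between days.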
